A study of Mus musculus with 447 samples.

Results

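Amylin and calcitonin gene-related peptides form one small peptide family, and its genes Iapp, Calca and Calcb were followed here in single cells of the fetal mouse pancreas. The 3 genes were taken by name, whatever their values, from the 40824 genes of the deposited count matrices. RNA was read by Smart-seq3, a plate-based full-length method with 1 sorted cell per well, in 447 GFP-positive cells at embryonic stage E15.5. The labels name 2 genotypes, Pdx1CreNeurod1OE (here Neurod1OE, 212 cells) and Pdx1CreNgn3KONeurod1OE (here Ngn3KO, 235 cells). By these labels, cells of both genotypes overexpress Neurod1 under a Cre driven by Pdx1, the series' design text writes this Cre as CreER, and the Ngn3KO cells also carry a floxed Ngn3 (Neurog3). No group without Neurod1 overexpression was used here. Titles split the cells into a set 3 (95 Neurod1OE and 30 Ngn3KO cells) and a set 2 (the other 322 cells), deposited as separate matrices and kept apart below. No label names an animal, litter or treatment date, so each genotype was 1 sample per set and no test between genotypes was made.

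Iapp encodes amylin, which beta cells co-store and co-secrete with insulin and which slows gastric emptying and restrains glucagon release. Calca encodes both calcitonin and calcitonin gene-related peptide (CGRP) alpha through alternative splicing of its last exons, and Calcb encodes the closely related CGRP beta. All these hormones signal through the calcitonin receptor or its relative Calcrl, whose ligand preference is set by receptor activity-modifying proteins (Ramp genes).

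The exons that encode the mature hormones show which members a count per gene can separate, and their coding parts are printed from the GENCODE vM21 transcripts of the mouse genome GRCm38 (mm10), 5′ to 3′ on the gene's own strand. In the CGRP exon of Calca and the matching exon of Calcb, capitals mark the bases that differ or stand against a gap when both are aligned end to end. The Iapp exon is exon 3 of Iapp-201 (chr6:142303306-142303501, plus strand).
Iapp: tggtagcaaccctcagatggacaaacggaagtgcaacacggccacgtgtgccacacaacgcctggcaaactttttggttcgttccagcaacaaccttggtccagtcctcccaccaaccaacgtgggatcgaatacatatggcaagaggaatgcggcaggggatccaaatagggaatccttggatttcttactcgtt
The CGRP exon is exon 4 of Calca-201 (chr7:114632443-114632599, minus strand).
Calca CGRP exon: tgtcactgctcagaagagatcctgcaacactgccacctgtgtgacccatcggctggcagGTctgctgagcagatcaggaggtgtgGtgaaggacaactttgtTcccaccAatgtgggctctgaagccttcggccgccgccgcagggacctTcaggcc
The calcitonin exon is exon 4 of Calca-202 (chr7:114633605-114633785, minus strand).
Calca calcitonin exon: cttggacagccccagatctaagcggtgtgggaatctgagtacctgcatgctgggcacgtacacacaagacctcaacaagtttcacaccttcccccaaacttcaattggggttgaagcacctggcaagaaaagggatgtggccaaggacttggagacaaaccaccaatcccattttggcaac
The Calcb exon is exon 4 of Calcb-201 (chr7:114721975-114722134, plus strand).
Calcb: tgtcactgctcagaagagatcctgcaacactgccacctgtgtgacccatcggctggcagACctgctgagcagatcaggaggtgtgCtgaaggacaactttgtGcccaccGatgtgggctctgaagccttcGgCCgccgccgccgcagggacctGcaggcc

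The CGRP exons of Calca and Calcb shared 94.4% of 160 aligned columns, but the longest unbroken run common to both transcripts was 60 bases, shorter than the 100-base reads. The Calca-201 and Calca-202 transcripts share a run of 337 bases, and a count per gene adds both, so calcitonin and CGRP messages of Calca were not separated. The Iapp exon matched the CGRP exon in 51.5% of aligned columns, with no common run over 9 bases. Iapp (ENSMUSG00000041681.2) lies at chr6:142298423-142303961 within the span of Slco1a5 on the other strand, with 0 bases of exon overlap, and Slco1a5 had 253 reads in all cells against 662613 for Iapp. Calca (ENSMUSG00000030669.13) lies at chr7:114631478-114636357 and Calcb (ENSMUSG00000030666.11) at chr7:114718643-114723365, on opposite strands and 82285 bases apart.

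Cells held between 25769 and 2788066 gene reads, with group medians of 344128 to 728074. Glucagon dominated set 2: 96.6% of Neurod1OE and 98.5% of Ngn3KO cells had at least 1000 CPM of Gcg (CPM are a cell's counts scaled to a total of 1000000). In set 3 these were 32 of 95 and 1 of 30 cells. Of the 30 Ngn3KO cells of set 3, 29 had at least 1000 CPM of the acinar enzyme gene Cpa1, and the acinar list (10 genes) summed to 42080 CPM there, against 99.98 to 4390 CPM in the other groups. Neurod1 stood at 332, 292 and 217 CPM in the other groups but at 30.4 CPM in Ngn3KO of set 3. The label of that group also names Neurod1 overexpression. Its median cell had 7.64 CPM, and the cell with the most Neurod1 reads gave 54.6% of them. Without a group lacking the overexpression, there was no baseline for these levels. Neurod1OE cells had 3.89 CPM of Neurog3 in set 2 against 3.06 CPM in Ngn3KO cells. In set 3 Neurod1OE cells were at 17.8 CPM of it and Ngn3KO cells at 3.72 CPM. Set 2 also falls into title-number blocks marked by the predicted gene Gm12338, which was at 10 CPM or more in all 51 Neurod1OE cells numbered 1 to 51 and in none of the 66 others. In the Ngn3KO cells of set 2, all cells numbered before the first Gm12338-negative one and 5 later ones were Gm12338-positive, and 97 cells were negative. By Y-linked and Xist reads, the Gm12338-positive Neurod1OE cells of set 2 were nearly all male (50 male cells) and the Ngn3KO cells of set 2 all female, while set 3 held 66 male and 29 female Neurod1OE cells and 30 male Ngn3KO cells. No 2 cells had identical counts.

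Iapp was read in every cell of set 2, mostly in cells dominated by glucagon rather than insulin. Summed over cells, it stood at 3319 CPM in Neurod1OE (95% Poisson interval 3306 to 3332, 250630 reads) and 3608 CPM in Ngn3KO (3595 to 3621, 287538 reads). In set 3 it stood at 1738 CPM in Neurod1OE (1729 to 1748) and 48.6 CPM in Ngn3KO (45.7 to 51.6, 1072 reads). These Poisson intervals cover counting error only, and they count amplified reads as if each were an independent molecule, which they are not. The Clopper-Pearson intervals of shares below treat cells as independent draws. Neither covers differences between animals.

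Levels in single cells ran over a wide range. In Neurod1OE cells of set 2, Iapp had its lowest value at 19.9 CPM, its median at 1473 CPM and its highest at 23573 CPM. In Ngn3KO cells of set 2 these were 50.4, 1634 and 44092 CPM, so that both genotypes of set 2 spanned nearly the same range. Neurod1OE cells of set 3 ran from 0 through a median of 80.5 CPM to 44045 CPM, as high at the top as set 2 but with 10 cells at 0. Ngn3KO cells of set 3 ran from 0 through 3.01 CPM to 1248 CPM, and 9 of 30 had no Iapp read.

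At least 1000 CPM of Iapp was found in 68 Neurod1OE cells (58.1%, Clopper-Pearson 48.6 to 67.2%) and in 60% of Ngn3KO cells (52.9 to 66.8%) of set 2. In set 3 it was found in 23 of 95 cells (24.2%, 16.01 to 34.1%) and in 1 of 30 cells (3.33%, 0.0844 to 17.2%). The intervals of both genotypes overlapped in set 2, and both groups of set 3 lay below them. At 10000 CPM or more stood 12, 16, 8 and 0 cells, in the order Neurod1OE and Ngn3KO of set 2, then of set 3. A few cells carried much of the message: the richest 10% of cells (12, 21 and 10 cells) gave 43.9% and 57.98% of the Iapp reads of Neurod1OE and Ngn3KO in set 2, and 81.9% in Neurod1OE of set 3.

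**Figure D1:**
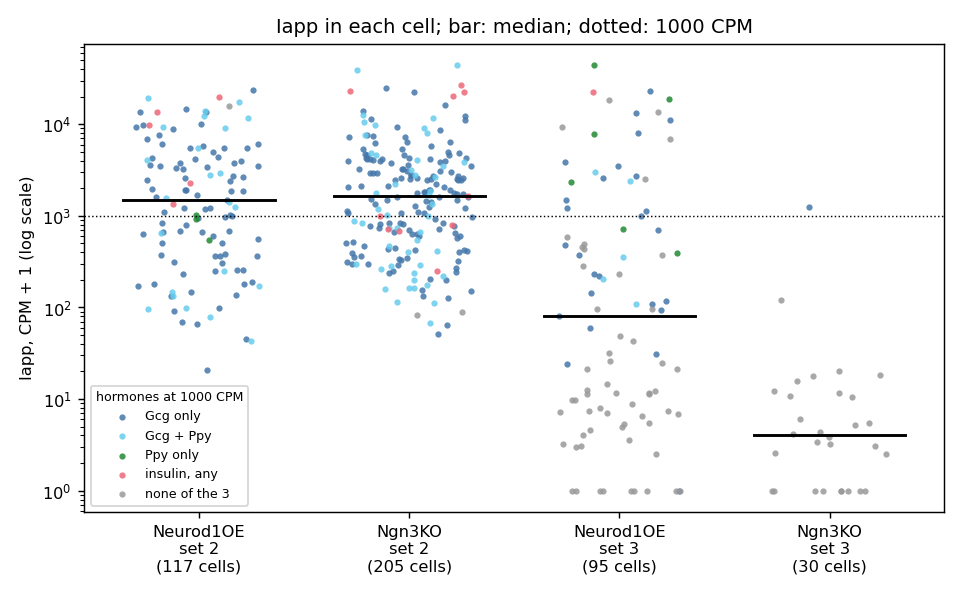
Iapp in each cell (CPM + 1, log axis) by genotype and set, coloured by which of Gcg, insulin (Ins1 + Ins2) and Ppy reached 1000 CPM; the black bar is the median and the dotted line 1000 CPM. Both groups of set 2 centre above 1000 CPM (medians 1473 and 1634). In set 3, cells with these hormones mostly lie higher than cells without them, but the ranges overlap.

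Hormone content was set by which of Gcg, insulin (Ins1 and Ins2 summed) and Ppy, the pancreatic polypeptide gene, reached 1000 CPM. Most Iapp-rich cells of set 2 were glucagon cells without high insulin. The 85 Neurod1OE cells with Gcg alone had a median of 1214 CPM of Iapp (lowest 19.9, highest 23573), and 47 of them (55.3%, 44.1 to 66.1%) reached 1000 CPM. The Ngn3KO cells with Gcg alone (70.7% of the group) had a median of 1799 CPM (50.4 to 24660), and 94 of them (64.8%, 56.5 to 72.6%) reached 1000 CPM. The intervals of both shares overlap. Cells with Gcg and Ppy had medians of 1562 CPM in 23 Neurod1OE cells and 1011 CPM in 48 Ngn3KO cells. Adding Ppy thus went with a higher median in one genotype and a lower one in the other, and in both the ranges of the classes overlapped almost fully.

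In Neurod1OE cells of set 3, median Iapp was higher in cells with Gcg or Ppy than in cells with none of the 3 hormones, with overlapping ranges. The 26 cells with Gcg alone had a median of 597 CPM (0 to 22884). The 5 cells with Gcg and Ppy had a median of 353 CPM (109.3 to 3025). The 6 cells with Ppy and no Gcg had a median of 5101 CPM (388 to 44045), against 921 CPM (541 to 1034) in the 3 such Neurod1OE cells of set 2. In the 57 cells with none of these hormones the median was 8.82 CPM, although 5 of them (8.77%, 2.91 to 19.3%) still reached 1000 CPM and the highest had 18588 CPM. Each of these 5 cells had over 1000 CPM of Pyy, the peptide YY gene, with values from 1382 to 61189 CPM. Among them, 2 also had 7344 and 37257 CPM of Sst, the somatostatin gene. The cell with 7344 CPM of Sst had 13518 CPM of Ghrl, the ghrelin gene, as well. Among the 57 cells, the 12 with at least 1000 CPM of Pyy had a median of 516 CPM of Iapp and the other 45 a median of 6.48 CPM. Of these 45 cells, 37 had an Iapp read and the highest had 489 CPM. Among the 57 cells, those with 1000 CPM or more of Iapp thus all had high Pyy. Lower levels of Iapp were also found under 1000 CPM of Pyy. Low reads of other hormone genes were widespread in set 3 for some genes and not for others. Gcg was read in 98.9% of Neurod1OE and 96.7% of Ngn3KO cells, with a median of 21.2 CPM in the latter. Ins2 was read in 29.5% and 6.67%. What such low reads stand for in a cell was not tested.

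In set 3, cells with high Cpa1 and none of the 3 hormones were at the low end, as were Cpa1-low cells without these hormones. The 29 Cpa1-high Ngn3KO cells of set 3 summed to 4.70 CPM of Iapp, 20 of them had an Iapp read, and their highest value was 118.5 CPM. The 13 Neurod1OE cells of set 3 with high Cpa1 and none of the 3 hormones had a median of 7.04 CPM and a highest value of 2552 CPM. Values of these Cpa1-high cells of both genotypes overlapped, with a median of 2.84 CPM in Ngn3KO. The 44 Neurod1OE cells of set 3 with low Cpa1 and none of the 3 hormones had a median of 10.4 CPM. Cpa1-high cells with a hormone could be higher. All 16 Cpa1-high Neurod1OE cells of set 3 reached up to 7841 CPM. In set 2, the 2 Cpa1-high Neurod1OE cells had 64.6 and 1873 CPM, and the 1 such Ngn3KO cell had 11830 CPM.

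**Figure D2:**
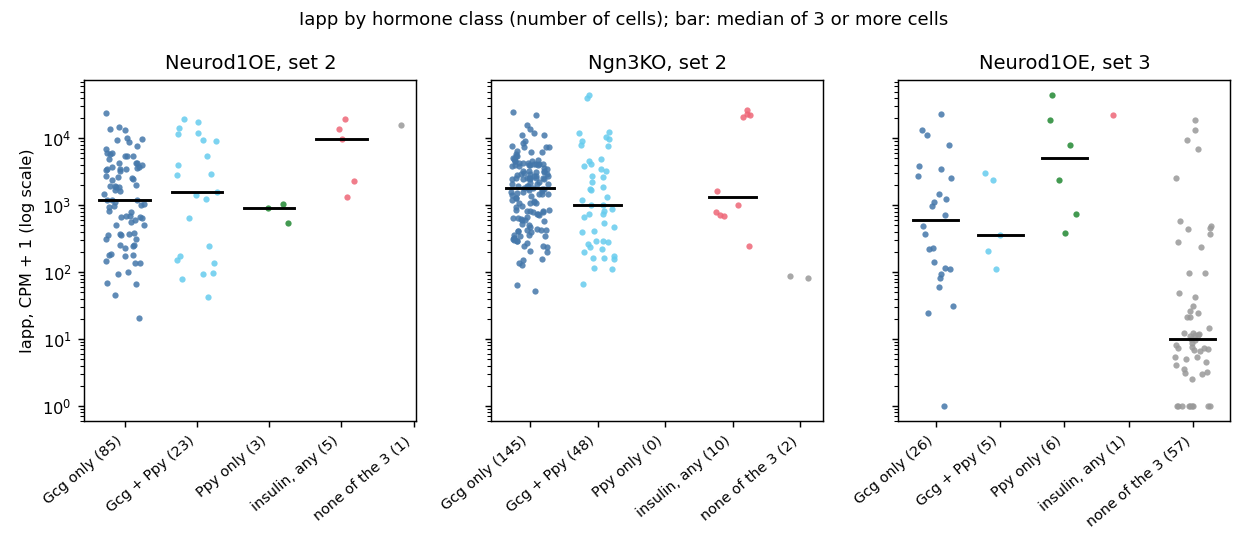
Iapp in each cell (CPM + 1, log axis) by hormone class in the 3 groups with several classes; numbers in brackets count cells and bars are medians of classes with 3 or more cells. Classes with Gcg overlap each other in both genotypes of set 2, and the cells with none of the 3 hormones in set 3 lie mostly near 10 CPM.

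Insulin and Iapp met at high levels only in a handful of cells. Insulin reached 1000 CPM in 16 cells. The 5 cells with at least 5000 CPM of insulin (8326 to 147505 CPM) all had Iapp between 19613 and 23041 CPM, a narrow range next to that of insulin. Of these cells, 3 were Ngn3KO cells of set 2, 1 was a Neurod1OE cell of set 2 and 1 a Neurod1OE cell of set 3. The 11 cells with 1000 to 5000 CPM of insulin had a median of 1343 CPM of Iapp (249 to 26958), and only 2 of them reached 10000 CPM. The division at 5000 CPM was chosen after these values were seen.

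High Iapp was also found where insulin was low. The 333 cells with at least 1000 CPM of Gcg and under 1000 CPM of insulin had a median of 1476 CPM of Iapp, and 24 of them reached 10000 CPM. Among all 36 cells at 10000 CPM or more of Iapp, insulin ran from 0 to 147505 CPM. Pyy was at 1000 CPM or more in 35 of these 36 cells (11 of 12, 16 of 16 and 8 of 8 in the groups with such cells). Most cells of set 2 reached that level of Pyy, whatever their Iapp: only 3 Neurod1OE and 13 Ngn3KO cells were under it. High Pyy thus did not set the Iapp-rich cells of set 2 apart. In Neurod1OE of set 3 the median cell had 1212 CPM of Pyy, so cells under 1000 CPM were common there.

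Per length of annotated exon, Iapp exceeded insulin in most cells. The lengths were unions of all annotated exons: 974 bases for Iapp, 1062 for Ins1 and 1312 for Ins2. A union can be longer than the transcript a cell makes, which lowers the level per length. How far this moved the comparison was not tested. The median level was 1512 CPM per kilobase of annotated exon for Iapp against 59.9 for Ins1 and Ins2 together in Neurod1OE cells of set 2, and 1678 against 80.1 in Ngn3KO cells. Iapp was above insulin in 94.9% and 91.2% of these cells. In Neurod1OE cells of set 3, Iapp was above insulin in 78 of 95 cells, and 53 of these had no insulin read. Summed over Ngn3KO cells of set 2, however, insulin (3818 CPM per kilobase) and Iapp (3704 CPM per kilobase) were nearly equal at these lengths. The 3 insulin-rich cells named above gave 95.4% of the insulin reads there. Gcg was the larger message per length in set 2: Iapp was above it in only 18 Neurod1OE (15.4%) and 12 Ngn3KO cells (5.85%) of set 2. In Neurod1OE of set 3 the medians were 82.7 CPM per kilobase for Iapp and 80.8 for Gcg, with Iapp above Gcg in 25 of 95 cells.

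**Figure D3:**
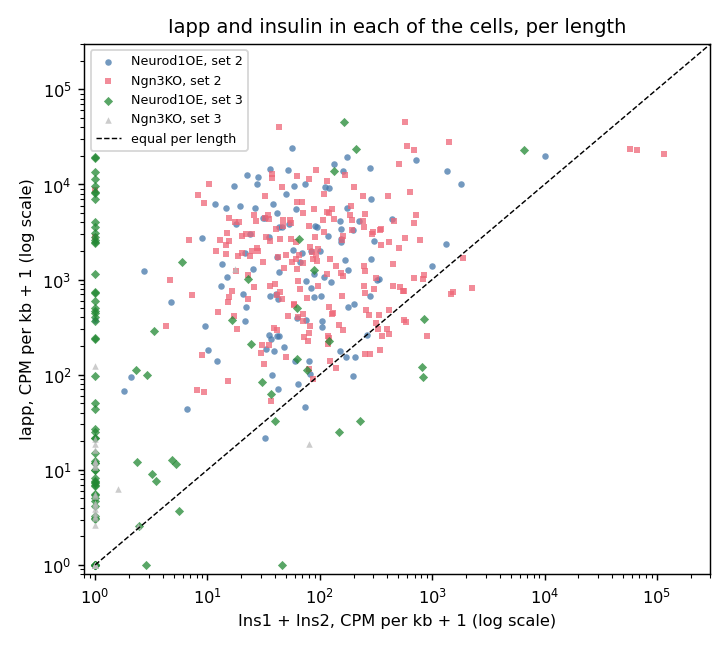
Iapp against insulin (Ins1 + Ins2) in each of the 447 cells, both in CPM per kilobase + 1 on log axes; the dashed line marks equal levels per length. Most cells lie above the line, and the 3 cells richest in insulin lie below it, with Iapp of 20563, 22553 and 23041 CPM before scaling to length.

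Iapp varied more between glucagon cells than most other abundant messages. Over cells with at least 1000 CPM of Gcg, the upper quartile of Iapp was 12.1 times the lower in Neurod1OE of set 2 (4348 against 359.99 CPM). In Ngn3KO of set 2 it was 7.15 times (3944 against 551 CPM), and in Neurod1OE of set 3 it was 24.5 times (2799 against 114.3 CPM, 32 cells). Among the genes averaging 1000 CPM or more in these cells, Iapp ranked 2 of 62, 5 of 59 and 3 of 64 by this ratio. Pcsk2, the prohormone convertase that cleaves the amylin precursor, had ratios of 2.08, 1.64 and 2.01 in the same cells.

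Between genotypes, Iapp did not reach a 2-fold difference in set 2 and was far lower in Ngn3KO in set 3. In set 2 the log2 ratio, Ngn3KO over Neurod1OE with 1 CPM added to both, was 0.12 (counting interval 0.11 to 0.13, computed without the added 1 CPM as for the ratios below). Of 10010 genes measured in set 2, 0.859% were higher by 2-fold or more in Ngn3KO and 1.67% lower by as much, with a median log2 ratio of -0.07. The sign for Iapp was not stable: it was -0.06 from the mean of single-cell CPM and -0.07 in cells with Gcg alone, and 0.05 and 0.15 in the Gm12338-positive and Gm12338-negative cells. In set 3 the log2 ratio was -5.13 (-5.25 to -5.07), where 31.8% of 10478 genes were at least 2-fold lower, 5.96% higher, and the median was -0.565. One glucagon cell gave 90.7% of the Iapp reads of Ngn3KO in set 3, and without the richest cell of each genotype the log2 ratio was -8.07. The Ngn3KO cells of set 3 were nearly all Cpa1-high and low in Neurod1, so genotype and cell makeup cannot be told apart in that set. In cells with at least 10 CPM of Neurod1 (12 Ngn3KO and 87 Neurod1OE cells), a choice made after the data were seen, the log2 ratio was -3.88.

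Calca was a low and patchy message, absent from the reads of most cells. Its summed level was 14.3 CPM in Neurod1OE (13.4 to 15.1, 1077 reads) and 46.9 CPM in Ngn3KO (45.4 to 48.5, 3740 reads) of set 2. In set 3 it was 15.6 CPM (14.7 to 16.5) and 7.34 CPM (6.25 to 8.56). The median cell had 0 in all 4 groups, and among cells with a read the medians were 28.4, 38.4, 37.9 and 26.3 CPM, Neurod1OE and Ngn3KO of set 2 first. The highest cells had 151.4, 5280, 227 and 173.001 CPM. The groups of set 2 thus had similar levels in cells with a read but very different highest cells.

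At least 10 CPM of Calca was found in 28 Neurod1OE (23.9%, 16.5 to 32.7%) and 51 Ngn3KO cells (24.9%, 19.1 to 31.4%) of set 2. In set 3 it was found in 24 of 95 (25.3%, 16.9 to 35.2%) and 4 of 30 cells (13.3%, 3.76 to 30.7%). All 4 intervals overlap. With every cell thinned to 165298 reads, leaving out 2, 31, 9 and 3 shallower cells, a Calca read was found in 27.8% and 28.7% of set 2 and in 25.6% and 14.8% of set 3 cells, against 35.04%, 27.8%, 28.4% and 13.3% without thinning. Of the 29 Cpa1-high Ngn3KO cells of set 3, 4 reached 10 CPM (13.8%, 3.89 to 31.7%, median 711280 reads). In another genotype and set, 28 of the Cpa1-low Neurod1OE cells of set 2 did (24.3%, 16.8 to 33.2%, median 572744 reads). Within Neurod1OE of set 3 the order was the other way. There 5 of 16 Cpa1-high cells (31.25%, 11.02 to 58.7%) and 19 of 79 Cpa1-low cells (24.05%, 15.1 to 34.98%) reached 10 CPM, with overlapping intervals. One of the 4 Ngn3KO cells of set 3, the richest in Calca of its group, also had 3793 CPM of Cpa1 and 6035 CPM of Pyy. It had 4837 CPM of Chga, the chromogranin A gene of endocrine granules.

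By hormone content, more of the cells with Gcg alone than of those with Gcg and Ppy had Calca, a difference that was not tested. In Neurod1OE of set 2, 23 of 85 cells with Gcg alone reached 10 CPM (27.1%, 17.99 to 37.8%) and 4 of 23 with Gcg and Ppy (17.4%, 4.95 to 38.8%). In Ngn3KO of set 2 these were 43 cells (29.7%, 22.4 to 37.8%) and 6 of 48 (12.5%, 4.73 to 25.3%). In Neurod1OE of set 3 they were 14 of 26 (53.8%, 33.4 to 73.4%) and 1 of 5 (20%, 0.505 to 71.6%). The order was the same in each group, with overlapping intervals. The classes were spread unevenly over the Gm12338 blocks of set 2: 39 of the 48 Ngn3KO cells with Gcg and Ppy were Gm12338-positive, against 60 cells with Gcg alone (85 negative). Within the positive block 3 of these 39 (7.69%) and 18.3% of the Gcg-alone cells reached 10 CPM, and within the negative block 3 of 9 (33.3%) and 37.6%. In Neurod1OE these were 0 of 10 and 11.8% in the positive block, and 4 of 13 (30.8%) and 37.3% in the negative. Of the 16 insulin-high cells, 1 reached 10 CPM of Calca. In Neurod1OE of set 3, the 57 cells with none of the 3 hormones held 8 such cells (14.04%, 6.26 to 25.8%).

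The share of cells with Calca differed between the title-number blocks of set 2 in both genotypes. In Neurod1OE, 5 of 51 Gm12338-positive cells (9.80%, 3.26 to 21.4%) and 23 of 66 Gm12338-negative cells (34.8%, 23.5 to 47.6%) reached 10 CPM. In Ngn3KO these were 14 positive (12.96%, 7.27 to 20.8%) and 37 of 97 negative cells (38.1%, 28.5 to 48.6%). Cells are not replicates, and no animal is named for any block. Median totals were 646845 and 519726 reads in Neurod1OE and 334198 and 352260 reads in Ngn3KO, positive block first. At equal depth a Calca read was found in 16.3% and 36.4% of Neurod1OE cells and in 13.7% and 46.8% of Ngn3KO cells. Among cells with Gcg alone the shares at 10 CPM were 11.8% and 37.3% in Neurod1OE and 18.3% and 37.6% in Ngn3KO. By sex, 50 of the 51 Gm12338-positive Neurod1OE cells were male, and the Ngn3KO cells of both blocks were female. In set 3, where Gm12338 does not follow the title numbers, the shares in Neurod1OE were 26.8% of 71 positive and 20.8% of 24 negative cells. What the blocks stand for is not stated, and their part in the Calca difference was not tested.

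**Figure D4:**
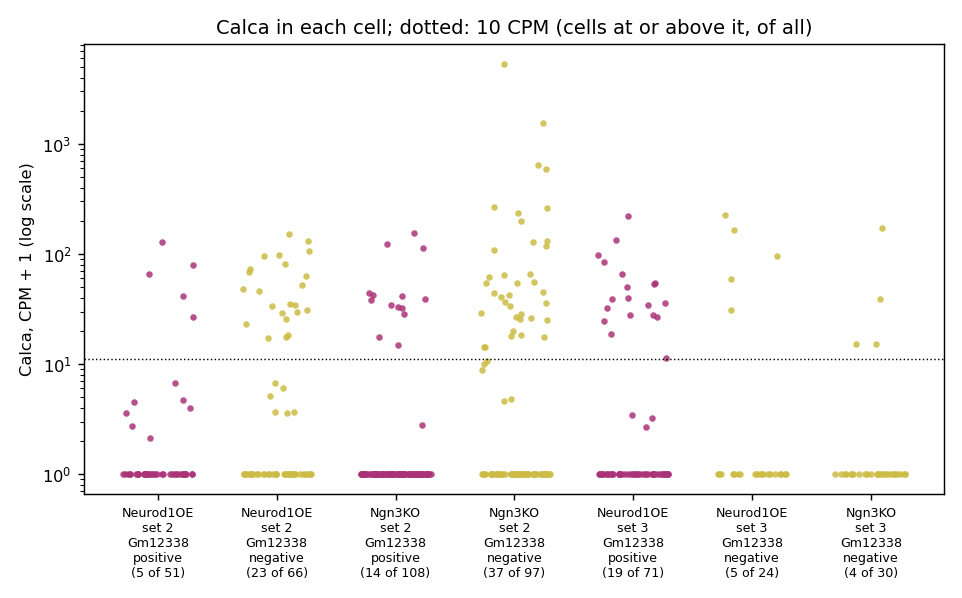
Calca in each cell (CPM + 1, log axis) by genotype, set and Gm12338 block; numbers in brackets count cells at or above 10 CPM (dotted line) of all cells of the block. In set 2 the negative blocks hold more such cells (23 of 66 and 37 of 97) than the positive blocks (5 of 51, and 14 cells or 12.96%), and the 4 richest cells are Gm12338-negative Ngn3KO cells.

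The genotype difference of Calca rested on few cells. In set 2 its log2 ratio was 1.65 (counting interval 1.62 to 1.82), which put it among the 0.859% of genes 2-fold or more above Neurod1OE. A single Ngn3KO cell with 5280 CPM gave 29.7% of the reads, and a second had 1566 CPM. Without both cells, a choice made after the data were seen, the log2 ratio was 0.55 and no longer 2-fold, and without the richest cell of each genotype it was 1.25. It was -0.45 in the Gm12338-positive and 2.41 in the Gm12338-negative cells. In set 3 the log2 ratio was -0.99 (-1.33 to -0.85), at the edge of 2-fold. It was past 2-fold with a pseudocount of 0.1 CPM (-1.08), a total without hormone genes (-1.03), the mean of single-cell CPM (-1.02) and male cells only (-1.14), and within it with TMM factors (-0.55) and DESeq2 size factors (-0.48). There 1 cell gave 75.3% of the Ngn3KO reads, and without the richest cell of each genotype the log2 ratio was -2.36.

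The cells with 5280 and 1566 CPM of Calca, the richest of all, were endocrine by their other messages. The 5280 CPM cell had 64827 CPM of Gcg, 1926 CPM of Iapp, 1394 CPM of Chga and 104.6 CPM of Ppy. The 1566 CPM cell had 97961 CPM of Gcg, 1153 CPM of insulin, 249 CPM of Iapp and 7582 CPM of Chga. In Ngn3KO of set 3, by contrast, the cells next to the richest had 38.3 and 14.3 CPM of Calca. They had 19952 and 10741 CPM of Cpa1 and only 46.3 and 2.87 CPM of Chga. Calca is best known from sensory neurons, and Scn10a, Tac1 and Trpv1, which mark such neurons, were at 0 in the 3 richest cells of every group. Scn10a was at 0 over all cells of 3 groups, and Trpv1 over all Neurod1OE cells of set 2.

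Calca and Iapp showed little relation across the cells of set 2. Of the Calca-positive cells (10 CPM or more), 13 of 28 (46.4%) and 35 of 51 (68.6%) of set 2 and 8 of 24 (33.3%) of Neurod1OE in set 3 had at least 1000 CPM of Iapp, against 58.1%, 60% and 24.2% of all cells. Spearman's rho between both genes over cells was -0.04 and 0.01 over the Neurod1OE and Ngn3KO cells of set 2, and 0.21 over the 95 Neurod1OE cells of set 3.

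Calcb was not detected beyond a single read. The read counts were 0, 1, 0 and 0 in Neurod1OE and Ngn3KO of set 2 and then of set 3. A count of 0 allows levels of up to 0.0397, 0.0423 and 0.136 CPM (3 reads of the group's total) in the 3 groups without a read. The 1 read lay in an Ngn3KO cell (2.86 CPM in that cell), with a Poisson upper limit of 0.0699 CPM for its group. By the same allowance of 3 counts, the share of cells with a read could reach 2.56% in Neurod1OE of set 2, 3.16% in Neurod1OE of set 3 and 10% in Ngn3KO of set 3. No fold is given for Calcb. How reads that match both the Calca and Calcb exons printed above were counted is not stated.

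Beside the 3 genes, 25 genes of the same pathway were taken from a fixed list of peptides, receptors, receptor partners, processing enzymes, degrading proteases and Iapp regulators. In set 2, none of them (0 higher, 0 lower) differed 2-fold between genotypes, 19 lay within 2-fold and 6 were too low to count as measured (10 CPM and a read in 10% of cells of 1 genotype). Their median log2 ratio was -0.02, against -0.07 over all measured genes. In set 3, 0 were higher, 13 lower, 6 within 2-fold and 6 too low, with a median of -2.14 against -0.565. Over all measured genes, 0.859% were called higher and 1.67% lower in set 2, and 5.96% and 31.8% in set 3.

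The receptor genes were read in part of the cells. Calcr, the calcitonin receptor that also forms amylin receptors, stood at 44.99 and 50.2 CPM in set 2, then at 20.9 and 16.4 CPM in set 3. All Calcr reads of Ngn3KO in set 3 came from 1 cell. Ramp1, which turns Calcr into an amylin receptor and Calcrl into the CGRP receptor, was measured in set 2 with 53.1 and 41.03 CPM, and in set 3 with 41.6 and 1.13 CPM. Ramp2 stood at 8.37, 10.5, 11.3 and 2.85 CPM in the same order, and Calcrl, the CGRP receptor itself, was near 0 throughout, with 0.0265 and 0.0627 CPM in set 2 against 2.54 and 1.495 CPM in set 3. At 10 CPM or more, Calcr and Ramp1 stood together in 12 Neurod1OE (10.3%, 5.41 to 17.2%) and 37 Ngn3KO cells (18.05%, 13.04 to 24.01%) of set 2. Taken singly, Calcr reached 10 CPM in 34.2% and 36.6% of the cells of these groups and Ramp1 in 51.3% and 54.1%. Of the cells with both, 8 and 22 also had at least 1000 CPM of Iapp. That level was reached by 58.1% and 60% of all cells of these groups. In set 3, 5 of 95 and 0 of 30 cells had both receptor genes. The peptide relatives Adm and Adm2 had 0 reads in set 2 and in Neurod1OE of set 3, and 29 and 41 reads in 1 and 2 Ngn3KO cells of set 3.

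The enzymes that mature amylin and CGRP were abundant except Pcsk1. Pcsk2 stood at 2113 and 2090 CPM, the carboxypeptidase gene Cpe at 2370 and 2338 CPM, and Pam, which amidates the peptide ends, at 1687 and 1881 CPM in Neurod1OE and Ngn3KO of set 2. Pcsk1, the other convertase, stood at 96.9 and 97.9 CPM. In set 3, Pcsk2 stood at 1066 and 49.9 CPM and Pam at 1426 and 323 CPM in Neurod1OE and Ngn3KO, whereas Pcsk1 was at 112.3 and 121.9 CPM. The amylin-degrading protease Ide had 29.9 and 38.2 CPM in set 2 but 44.2 and 70.3 CPM in set 3. Of the regulators, Mafa, a beta-cell activator of the insulin genes, had reads in 1 cell in all. Pdx1 and Nkx6-1, which are also beta-cell factors, stood at 22.2 and 21.04 CPM and at 30.3 and 45.1 CPM in set 2. Isl1 and Pax6, shared by all islet cell types, stood at 844 and 750 CPM and at 664 and 615 CPM.

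**Figure D5:**
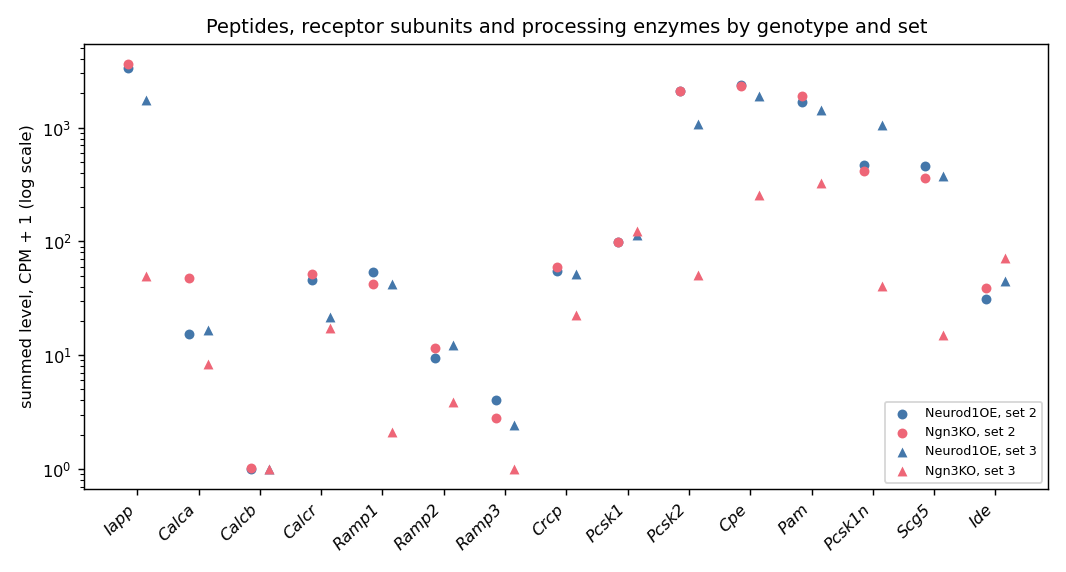
Summed levels (CPM + 1, log axis) of the peptides, receptor subunits, processing enzymes and Ide in both genotypes; circles are set 2 and triangles set 3. In set 2 the genotypes lie close together except for Calca (14.3 and 46.9 CPM), and in set 3 Ngn3KO lies lower for most plotted genes but not for Pcsk1 and Ide, nor for Calcb with 0 reads in both.

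Across cells, the message most alike to Iapp by the smallest value over 3 groups was that of the convertase Pcsk2. Likeness was the smallest Spearman's rho over the 3 groups with at least 50 cells, among 8395 genes measured in each. Pcsk2 led with 0.56, 0.47 and 0.74, in the order Neurod1OE and Ngn3KO of set 2 and Neurod1OE of set 3. It was followed by G6pc2, an islet glucose-6-phosphatase (0.40, 0.43 and 0.51), Ppp1r1a, a phosphatase inhibitor (0.44, 0.34 and 0.55), and Rab3a, a vesicle GTPase (0.36, 0.33 and 0.46). Map2, Gnas, Slc30a8, the zinc transporter of insulin granules, and Acly completed the 8 most alike, with smallest values of 0.30 to 0.32. In Neurod1OE of set 3 by itself, Pam (0.76) and Pyy (0.75) were above Pcsk2. The least alike were Aldh1b1 (-0.30, -0.28 and -0.39), Fyn, Hmga2 and Map4k4. The points share cells, depth and composition: Iapp itself had rho of -0.16, -0.09 and -0.26 with the cell's total and -0.26, -0.12 and -0.07 with its number of detected genes.

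The hormone genes were less alike to Iapp than Pcsk2 in set 2. Spearman's rho with Gcg was -0.11, 0.12 and 0.51, with Ins2 0.19, 0.04 and 0.18, and with Pyy 0.05, -0.05 and 0.75. Values near 0 in set 2 and high in Neurod1OE of set 3 were found for Gcg, Ppy and Pyy alike, where set 3 mixes cells with and without islet hormones. With Neurod1, rho was 0.01, 0.02 and 0.29. For Calca, which is at 0 in most cells, no gene exceeded 0.30 as the smallest value. The most alike by the same rule was Ttr, the transthyretin gene (0.30, 0.37 and 0.40), followed by Xpnpep2 and Spint2, and Calca also had rho of 0.27 with the number of detected genes in each of the 3 groups.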

How the data were processed

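The authors deposited raw read counts, whole numbers for each gene and cell, in 2 sparse matrices. For their making, the submitters' processing notes list Trimmomatic 0.39, HISAT2 2.1.0, featureCounts 2.0.0 and the genome mm10. The annotation, strand setting, treatment of reads matching several genes, use of molecule barcodes and cell filters are not given in the sources used here. Spike-in sequences (92 names) were left out of totals, no cell was removed and no doublet caller was run. The method sorts 1 cell into each well, but whether every well held only 1 cell was not checked. All columns were mapped to samples by title.

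Counts were summed per genotype and set and scaled to CPM, and log2 ratios were taken with a pseudocount of 1 CPM. Genes entered a comparison at 10 CPM or more and a read in 10% of cells of 1 genotype, and were called at 2-fold. Each genotype was 1 sample, so no p-value was computed. Poisson and Clopper-Pearson intervals are at 95%. Limits for counts of 0 rest on 3 counts, and counting intervals of ratios use no pseudocount. Thinning used the 10th percentile of totals (165298 reads, seed 1). Exon lengths are unions of GENCODE vM21 exons. A cell counted as male when Y-linked reads exceeded Xist reads. The named genes were the 3 members, the pathway list, 7 other hormone genes, and for each member the 8 most and 4 least alike genes. Members, lists and levels were chosen with earlier results of these data known. The summed level of the sensory neuron list is not reported here. Ratios and rank correlations were tested on simulated data. Python 3.11.15 with numpy 2.4.6, scipy 1.17.1, pandas 2.3.3 and matplotlib 3.10.9 was used, while scaling factors alone came from edgeR 4.0.16 and DESeq2 1.42.0 under R 4.3.3. Alternatives changed the library size, cell weighting, cells used, pseudocount, hormone level and gene filter.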

Additional observations from a re-analysis of the deposited data

Results flagged for a closer look

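With all cells and summed counts, Iapp and Calca had genotype ratios of opposite sign in the 2 sets. For Iapp the log2 ratio, with Ngn3KO in the numerator, was 0.12 in set 2 and -5.13 in set 3. For Calca it was 1.65 in set 2 and -0.99 in set 3. The sign in set 2 was not stable: Iapp was at -0.058 as a mean of cells and -0.068 in cells with Gcg alone, and Calca at -0.45 in Gm12338-positive cells. The difference between the sets was not tested, since each genotype was 1 sample per set. Beside it stand the Cpa1-high cells of Ngn3KO, 1 in set 2 (0.488%) and 29 of 30 in set 3, and the 2 set 2 cells above 1000 CPM of Calca. Their part in the result was not tested.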

How the results depend on the processing

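No paired analysis was possible because the numbers in the titles count cells, not animals, and no test was made. Of the alternative values, 76 stayed within the interval of the main value or, for shares of genes, within 1.5 times. Another 31 moved and 1 turned the sign of a called value. The interval was a counting interval for ratios and an interval over cells for shares of cells and class medians. In small classes, such as those of 3 cells, the interval of the median spans all their cells, so staying within it says little. The log2 ratio of Iapp in set 2 (0.12) was 0.18 with TMM factors, 0.15 with DESeq2 size factors, with a total without hormone genes and in Gm12338-negative cells, 0.16 without the richest cell of each group, 0.11 in Gcg-high cells, 0.054 in Gm12338-positive cells, -0.058 as a mean of cells and -0.068 in cells with Gcg alone. Calca in set 2 (1.65) was 1.86 as a mean of cells, 1.25 without the richest cells, 1.33 in cells with Gcg alone, 1.23 with a pseudocount of 10 CPM, 2.41 in Gm12338-negative cells, 0.55 without the cells above 1000 CPM, and reversed to -0.45 in Gm12338-positive cells. Iapp in set 3 (-5.13) was -4.65 with TMM factors, -4.58 with DESeq2 size factors, -5.58 as a mean of cells, -8.07 without the richest cells, -3.88 in cells with 10 CPM of Neurod1 and -4.90 with a pseudocount of 10 CPM. Calca in set 3 (-0.99) was -0.55, -0.48, -2.36, -0.029 and -0.56 under TMM factors, DESeq2 size factors, without the richest cells, in cells with 10 CPM of Neurod1 and with a pseudocount of 10 CPM. The cause was not tested. The median Iapp of Neurod1OE cells of set 2 with Ppy alone moved from 921 to 6327 CPM when hormones were called at 2000 CPM. The share of genes 2-fold higher in set 2 was 1.87% with no filter and 0.411% at 50 CPM, and 2-fold lower 2.54% and 0.411%. All 24 shares of cells stayed within their intervals. Of these, the 8 for Calcb, with at most 1 read in a group, could only stay at 0 and say nothing of stability. They are among the 76. Ratios within Gcg-high cells of set 3 were not run, with 1 such Ngn3KO cell, nor any ratio for Calcb, with 1 read. For Calcb, depth sets the upper limits given with its levels.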
